A study of Mus musculus with 12 samples.

Results

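Expression of 8 genes that are textbook targets of the transcription factor ATF4 was followed in 2 mouse mammary cancer lines grown as tumourspheres and in their knockout-labelled counterparts. The genes were listed by name: Phgdh, Psat1 and Psph of serine synthesis, Shmt2 and Mthfd2 of mitochondrial one-carbon metabolism, Asns of asparagine synthesis, and the stress effectors Chac1 and Trib3. All 8 were among the 18278 genes listed in each count file and among the 18176 genes tested. Tumourspheres are floating clusters formed by single cells that cannot attach; these were seeded at 10000 cells per mL and cultured for 6 days without serum, with 20 ng per mL of EGF and 20 ng per mL of basic FGF. LM1 and LM9 are lines from lung metastases that formed in NOD/SCID mice after piggyBac transposon mutagenesis of HR1, a non-metastatic line from a mutant PIK3CA mouse mammary tumour, so by their labels all groups share that background. LM1 Nfib KO and LM9 Nfib KO are CRISPR-Cas9 pools directed against Nfib, which encodes a transcription factor of the NFI family, each mixed from a small number of single-cell clones. Each of the 4 groups had 3 libraries, and the labels do not say whether these came from separate cultures. The study's methods mention technical triplicates for tumoursphere measurements, without saying whether the RNA libraries are meant. The p-values therefore measure the spread between these libraries, which may be technical.

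When amino acids run short, the endoplasmic reticulum is stressed or haem is lacking, kinases phosphorylate the translation factor eIF2. General translation then slows while the Atf4 mRNA is translated more, so ATF4 protein is set largely at translation, which RNA-seq does not measure. ATF4 binds with C/EBP family partners to composite elements in its target genes and raises enzymes that make serine, glycine, asparagine and one-carbon units, and also feedback genes such as Trib3. In mammary cancer, serine synthesis is best known through PHGDH, whose gene is amplified in some tumours.

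Before any result, the libraries were checked against their labels. The level of Nfib mRNA did not fall with the knockout label. It ranged from 196 to 241 CPM (TMM-scaled counts-per-million) in LM1 and from 228 to 239 CPM in libraries labelled LM1 Nfib KO (log2 fold change 0.11, limma-voom adjusted p = 0.533). The LM9 range was 120 to 210 CPM, against 227 to 247 CPM in libraries labelled LM9 Nfib KO (log2 fold change 0.68, adjusted p = 0.00260, and 0.93, adjusted p = 1.14e-09, without LM9 replicate 1). A frameshift need not lower the mRNA, so the count checks no knockout, and these libraries are called by their labels throughout. LM9 replicate 1 stood apart from its group: across genes its log2 values correlated at 0.998 with LM1 libraries and at 0.959 to 0.963 with LM9 replicates 2 and 3. Its label may therefore be wrong, which these counts alone cannot settle; it was kept in the group its label gives, so each LM9 mean, SD and fold change from all 3 libraries carries that doubt. Log2 fold changes and list counts in LM9 are therefore also given without it where a call or sign changed or a value moved by over 1.5 times. Parental libraries correlated at 0.652 to 0.666 with knockout-labelled ones, whereas the knockout-labelled libraries of LM1 and LM9 correlated at 0.998 to 0.999 with each other. Whether the knockout-labelled libraries came from the lines their labels name cannot be told from these counts alone. The study's methods say that the knockout clones were screened for the protein by immunoblot, which is not analysed here. Each fold change between knockout-labelled and parental libraries compares groups that differ this widely. The summed luminal epithelial markers (5 of 6 listed, among them Krt18 and Epcam) ran from 737 to 1327 CPM over the parental libraries, LM1 and LM9, and from 0.931 to 1.11 CPM over the libraries labelled knockout. Of the 3 endothelial markers listed, 2 were in the files, and they did not move together: Cdh5 was at 0 to 0.0361 CPM in the parental libraries and at 67.8 to 74.6 CPM in those labelled knockout, while Pecam1 was at 0.169 to 1.33 CPM and at 0.243 to 0.555 CPM. Their sum ran from 0.169 to 1.33 CPM and from 68.2 to 75.1 CPM. The 4 mesenchymal markers did not move together. Their sum was lower in the knockout-labelled libraries (6349 to 6622 CPM) than in the parental ones (13953 to 16297 CPM), as was Fn1, which encodes fibronectin (186 to 197 against 8409 to 12435 CPM). Col1a1, a fibroblast collagen, was at 1.77 to 6.31 CPM in the parental libraries and at 868 to 979 CPM in those labelled knockout, and Pdgfrb was at 0.0403 to 1.74 and at 110 to 117 CPM. Vim was at 2940 to 5543 CPM and at 5158 to 5330 CPM. These marker levels move with every comparison of a parental group with a knockout-labelled one below, and their part in the results was not tested.

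The letters of the C/EBP-ATF composite element were looked for in the RefSeq promoter windows of the members (GRCm38.p6, 250 bases before to 50 bases after each annotated start), because these elements are where ATF4 is known to act. All 8 members had a window. The core TGATGNAA was found on either strand in the windows of 3 members (Asns, Chac1 and Trib3), against 4.51% of 27025 genes with a window. A looser spelling chosen after these sequences were seen, TGNTGCAA, matched Psat1, Chac1 and Trib3 and was held by 3.72% of genes; the spellings overlap in TGATGCAA, which is the match in Chac1. In Trib3 the first spelling, read on the opposite strand as TTACATCA, began 14 bases after the RefSeq start. GENCODE M21 starts Trib3 further downstream, so that match lies before the start there. Phgdh, Psph, Shmt2 and Mthfd2 had neither spelling in their windows, which says only that these letters are not there. The palindrome bound by NFI factors, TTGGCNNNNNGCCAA, was in no member's window and in 12 windows of 32851. The 4 stretches with a match upstream of the RefSeq start are shown 5′ to 3′ on the strand of the gene, with the matched letters in capitals.
Asns (chr6:7693225-7693304, minus strand): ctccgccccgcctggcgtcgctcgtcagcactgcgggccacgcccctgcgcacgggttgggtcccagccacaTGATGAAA
Chac1 (chr2:119351013-119351092, plus strand): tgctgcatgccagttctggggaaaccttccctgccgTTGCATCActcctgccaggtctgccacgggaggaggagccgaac
Psat1 (chr19:15925152-15925231, minus strand): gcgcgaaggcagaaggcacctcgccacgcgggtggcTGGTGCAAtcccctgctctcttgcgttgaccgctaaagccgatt
Trib3 (chr2:152344061-152344140, minus strand): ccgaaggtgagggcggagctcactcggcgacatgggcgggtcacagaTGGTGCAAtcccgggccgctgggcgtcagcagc
The matches began 23 bases before the RefSeq start in Asns, 193 in Chac1, 136 in Psat1 and 33 in Trib3. GENCODE M21 starts Asns further upstream, so the match lies in its first exon there, and it places the Psat1 stretch inside the gene but in no exon. None of these matches was tested for binding.

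All 8 members were higher in libraries labelled LM1 Nfib KO than in LM1 at an adjusted p under 0.05, with log2 fold changes from 1.27 for Trib3 to 4.17 for Mthfd2. The same held for all 8 between libraries labelled LM9 Nfib KO and LM9, from 0.61 for Trib3 to 3.97 for Shmt2, and again for all 8 without LM9 replicate 1, from 0.29 to 3.90. The background is large: 43.1% of all genes tested were called higher in the LM1 comparison, 44.3% in the LM9 comparison and 47.7% in the LM9 comparison without replicate 1. The shares called lower were 38.1% in LM1 and 38.0% in LM9, with 0 members. The members had been chosen with earlier results of these data known, so these counts describe them and test nothing about the list. With the added requirement of a log2 fold change above 1, 8 members passed in LM1, where 29.8% of genes did, and 7 in LM9, where 31.3% did, with Trib3 the exception. Every knockout-labelled library was above every parental library of its line for all 8 members, which was true of 46.8% of genes in LM1 and 43.4% in LM9. The median log2 fold change of the members was 3.21 in LM1 and 2.56 in LM9, beside 0.08 and 0.13 over all genes, and 2.29 in LM9 without replicate 1. Summed over the members, expression was 314 ± 7.11 CPM in LM1 and 1745 ± 36.1 CPM in libraries labelled LM1 Nfib KO (mean ± SD, n = 3). In LM9 the sum was 458 ± 121 CPM, with replicate 1 at 318 CPM and the other two at 525 and 530 CPM, against 1723 ± 17.7 CPM in libraries labelled LM9 Nfib KO. In bulk RNA, more cells of a kind and more RNA per cell cannot be told apart.

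**Figure D1:**
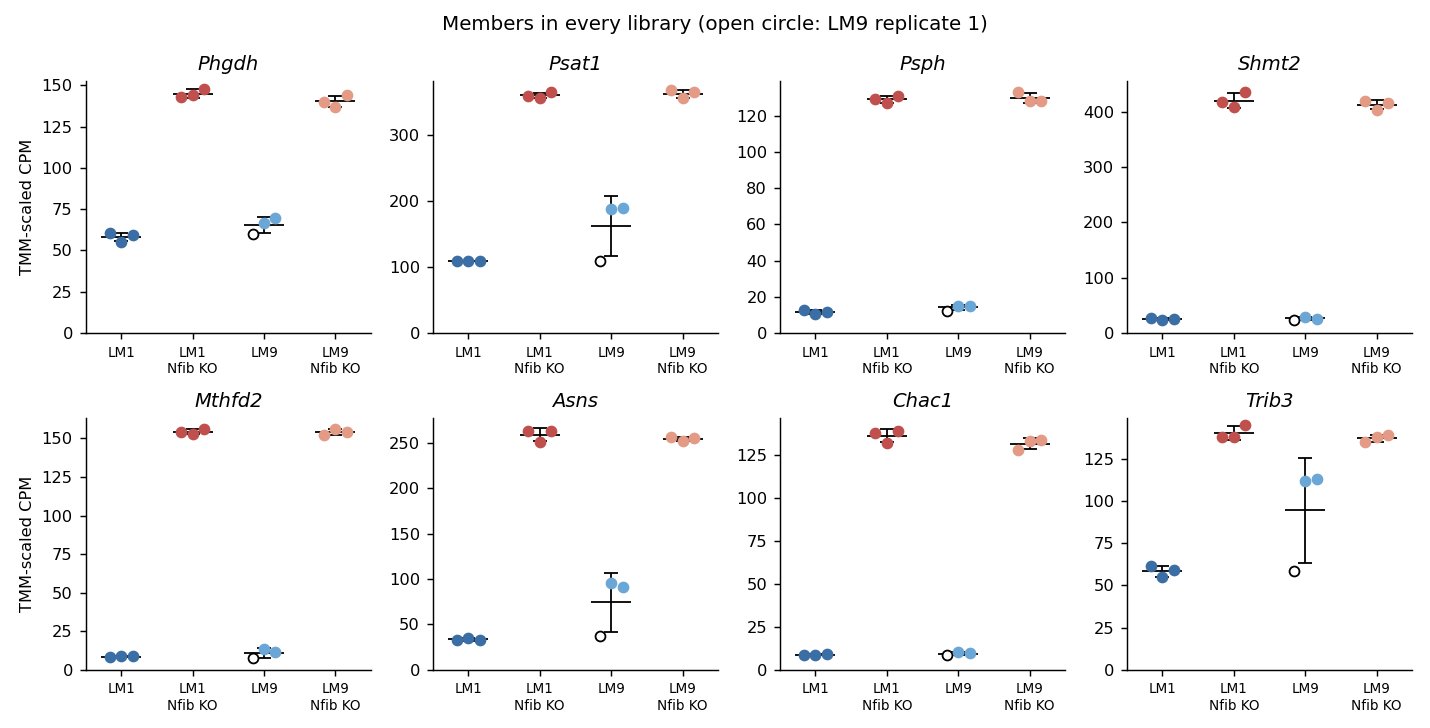
TMM-scaled CPM of each member (y axis, from 0) in each of the 12 libraries, by group (x axis); bars are mean ± SD of 3 libraries and the open circle is LM9 replicate 1. In every panel the knockout-labelled libraries lie above the parental ones, and in Psat1, Asns and Trib3 LM9 replicate 1 lies at the LM1 level, below the other LM9 libraries.

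The members fell into a group of large changes and a group of moderate ones. Shmt2, Mthfd2, Chac1 and Psph rose by log2 fold changes of 3.21 to 4.17 in both lines and stood among the top 7.61% to 11.2% of genes by signed change. Asns was intermediate, within the top 11.5% in LM1 and 19.4% in LM9. Phgdh, Psat1 and Trib3 stood within the top 19.8% to 25.6% of genes in LM1 and 28.1% to 39.5% in LM9. The enzymes of 1 linear pathway, serine synthesis, were thus split between both groups.

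Phgdh (ENSMUSG00000053398, chr3:98313170-98339990, minus strand of GRCm38, as are all coordinates of genes here) encodes phosphoglycerate dehydrogenase, which draws a glycolytic intermediate into serine synthesis. It was at 60.3, 55.4 and 59.2 CPM in the LM1 libraries and at 143, 144 and 148 CPM in libraries labelled LM1 Nfib KO. LM9 had 60.1, 66.8 and 69.4 CPM, and libraries labelled LM9 Nfib KO had 140, 137 and 144 CPM. The knockout-labelled libraries of both lines lay from 137 to 148 CPM, and no parental library reached that range. The log2 fold change was 1.31 (SE 0.06, adjusted p = 3.9e-09) in LM1 and 1.10 (SE 0.06, adjusted p = 1.72e-08) in LM9. The transcript has near-identical processed copies elsewhere in the genome: 16 other annotated genes held a stretch of at least 76 bases, the read length, with at least 95% identity, and 13 of these were in the count files. Those 13 summed to 118 ± 6.11 CPM in LM1 and 294 ± 6.30 CPM in libraries labelled LM1 Nfib KO, and to 130 ± 11.4 and 293 ± 0.494 CPM in LM9. Phgdh and its copies together differed 2.49-fold in LM1 and 2.21-fold in LM9, against 2.48-fold and 2.15-fold for Phgdh alone, all as ratios of group means. The sources used here do not say how multiply aligned reads were counted, so the level of Phgdh itself is uncertain.

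Psat1 (ENSMUSG00000024640, chr19:15904678-15947337, minus strand) encodes the aminotransferase of the second step. The LM1 libraries held 109 CPM each, and those labelled LM1 Nfib KO held 360, 356 and 365 CPM. LM9 replicate 1 was at 110 CPM, replicates 2 and 3 were at 188 and 190 CPM, and libraries labelled LM9 Nfib KO were at 368, 356 and 365 CPM. Psat1 was thus at a common level in the knockout-labelled libraries and at 2 levels among the parental ones. It rose by a log2 fold change of 1.72 (SE 0.16, adjusted p = 1.33e-06) in LM1 and 1.21 (SE 0.16, adjusted p = 2.67e-05) in LM9, or 0.95 without LM9 replicate 1.

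Psph (ENSMUSG00000029446, chr5:129765558-129787449, minus strand) encodes the phosphatase of the last step, which releases free serine. Its level was 12.7, 10.7 and 11.7 CPM in LM1 and 12.4, 15.0 and 14.9 CPM in LM9. The libraries labelled LM1 Nfib KO had 129, 127 and 131 CPM, and those labelled LM9 Nfib KO had 133, 128 and 128 CPM. The lowest knockout-labelled library was 8.49 times the highest parental one. The log2 fold change was 3.47 (SE 0.08, adjusted p = 2.23e-11) in LM1 and 3.21 (SE 0.08, adjusted p = 3.21e-11) in LM9. Psph overlaps Cct6a, a chaperonin subunit gene on the opposite strand, over 452 bases of transcript. Cct6a was itself at 166 ± 4.51 CPM in LM1 and 594 ± 3.56 CPM in libraries labelled LM1 Nfib KO, and whether counting used strand was not stated, so the value of Psph is uncertain to that extent.

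Shmt2 (ENSMUSG00000025403, chr10:127517123-127522444, minus strand) encodes the mitochondrial enzyme that splits serine into glycine and a one-carbon unit carried by folate. It was at 27.6, 23.7 and 25.6 CPM in LM1 and at 417, 409 and 435 CPM in libraries labelled LM1 Nfib KO. LM9 had 23.9, 29.5 and 25.9 CPM, and libraries labelled LM9 Nfib KO had 420, 403 and 416 CPM. The gap between the groups was the widest of the 8 members, with the lowest knockout-labelled library at 13.7 times the highest parental one. The log2 fold change was 4.04 (SE 0.08, adjusted p = 7.34e-12) in LM1 and 3.97 (SE 0.08, adjusted p = 7.9e-12) in LM9. One other listed gene, Gm15544, matched 180 bases of its transcripts at 95% identity.

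Mthfd2 (ENSMUSG00000005667, chr6:83305691-83325908, minus strand) encodes the mitochondrial dehydrogenase and cyclohydrolase that oxidises that one-carbon unit. The LM1 libraries held 8.01, 8.77 and 8.82 CPM and the LM9 libraries 7.72, 13.7 and 11.3 CPM. The libraries labelled LM1 Nfib KO were at 154, 153 and 156 CPM, and those labelled LM9 Nfib KO at 152, 156 and 154 CPM. The 6 knockout-labelled libraries thus lay from 152 to 156 CPM, while LM9 replicates 2 and 3 were above all other parental libraries. Mthfd2 rose by a log2 fold change of 4.17 (SE 0.14, adjusted p = 2.15e-10) in LM1 and 3.87 (SE 0.14, adjusted p = 3.16e-10) in LM9, or 3.63 without LM9 replicate 1. A neighbouring gene model on the same strand, Gm43890, overlaps it and held 2 to 26 counts per library.

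Asns (ENSMUSG00000029752, chr6:7675169-7693254, minus strand) encodes asparagine synthetase, which makes asparagine from aspartate and glutamine. The LM1 libraries were at 32.3, 35.3 and 32.7 CPM and those labelled LM1 Nfib KO at 263, 251 and 263 CPM. LM9 replicate 1 was at 36.8 CPM, LM9 replicates 2 and 3 were at 95.1 and 91.0 CPM, and libraries labelled LM9 Nfib KO were at 256, 252 and 255 CPM. The LM9 libraries without replicate 1 were therefore nearer to the knockout-labelled ones than LM1 was. The log2 fold change was 2.95 (SE 0.28, adjusted p = 1.25e-06) in LM1 and 1.91 (SE 0.26, adjusted p = 3.37e-05) in LM9, or 1.46 (SE 0.04) without LM9 replicate 1.

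Chac1 (ENSMUSG00000027313, chr2:119351229-119354381, plus strand) encodes a cyclotransferase that breaks down glutathione. It was at 8.76, 8.40 and 9.29 CPM in LM1 and at 138, 132 and 139 CPM in libraries labelled LM1 Nfib KO. LM9 had 8.77, 10.1 and 9.45 CPM, and libraries labelled LM9 Nfib KO had 128, 133 and 134 CPM. All parental libraries, LM9 replicate 1 included, were within 2 CPM of each other. Chac1 rose by a log2 fold change of 3.95 (SE 0.07, adjusted p = 5.41e-12) in LM1 and 3.81 (SE 0.07, adjusted p = 7.34e-12) in LM9.

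Trib3 (ENSMUSG00000032715, chr2:152337422-152344032, minus strand) encodes a pseudokinase that binds ATF4 and dampens its activity. The LM1 libraries held 61.4, 54.8 and 58.9 CPM, and those labelled LM1 Nfib KO held 138, 138 and 145 CPM. LM9 replicate 1 was at 58.6 CPM, replicates 2 and 3 were at 112 and 113 CPM, and libraries labelled LM9 Nfib KO were at 135, 138 and 139 CPM. The gap in LM9 was the narrowest of the 8 members, since replicates 2 and 3 came close to the knockout-labelled level. The log2 fold change was 1.27 (SE 0.20, adjusted p = 8.96e-05) in LM1. In LM9 it was 0.61 (SE 0.19, adjusted p = 0.0116) and 0.29 (SE 0.04, adjusted p = 5.53e-06) without replicate 1, where the median over all genes was 0.16. A fit of only the LM9 groups gave 0.60 and did not pass the threshold.

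**Figure D2:**
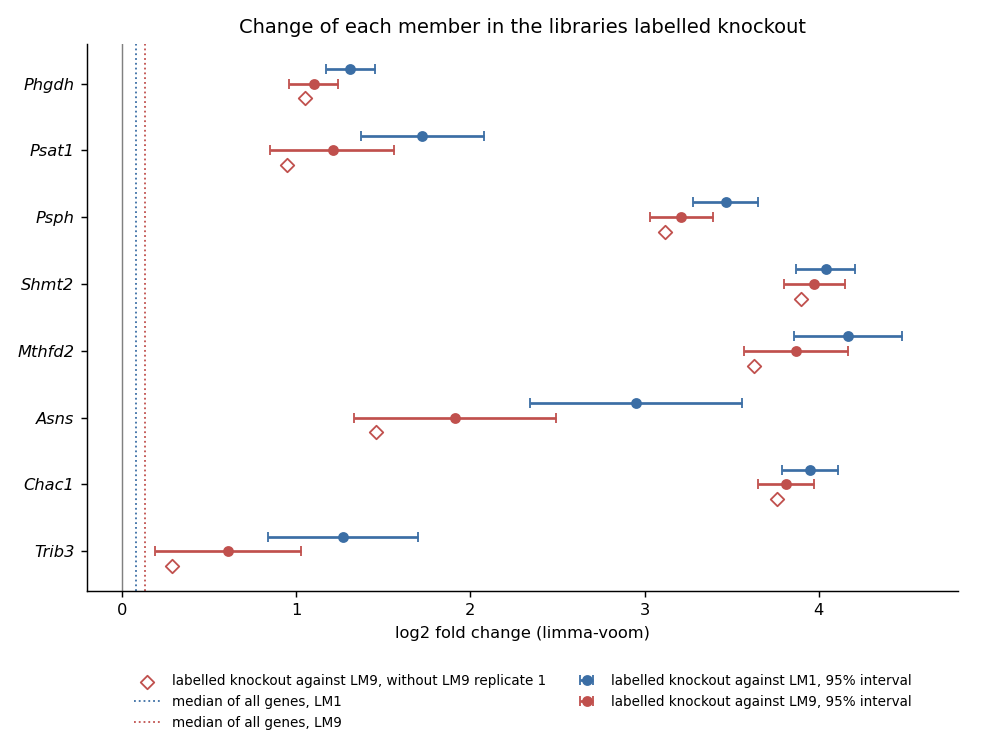
Log2 fold change of each member (x axis) between knockout-labelled and parental libraries, with 95% confidence intervals from limma-voom; open diamonds leave out LM9 replicate 1 and dotted lines mark the medians of all genes, 0.08 in LM1 and 0.13 in LM9. Shmt2, Mthfd2, Chac1 and Psph lie at 3.12 or above in both lines, while Trib3 in LM9 falls from 0.61 to 0.29 without that library.

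Levels can be compared between genes only per length, so CPM was divided by the kilobases of the exon union of each gene (RPKM). In LM1, Trib3 (27.5 RPKM), Psat1 (25.6) and Phgdh (23.5) led, followed by Asns (12.2), Shmt2 (8.24) and Chac1 (5.38), with Psph (2.71) and Mthfd2 (2.45) lowest. Of these neighbours, only Psph and Mthfd2 overlapped in their libraries' ranges. The order in LM9 was Trib3 (44.4), Psat1 (38.2), Asns (27.2), Phgdh (26.3), Shmt2 (8.50), Chac1 (5.76), Psph (3.26) and Mthfd2 (3.12), and the ranges of the first 4 overlapped from neighbour to neighbour, as did those of the last pair. That mean joins libraries that differ: in LM9 replicate 1 Phgdh (24.2) stood above Asns (13.4), as in LM1, whereas in replicates 2 and 3 Asns (34.0) stood above Phgdh (27.4) and only the last pair overlapped. In libraries labelled LM1 Nfib KO the order differed: Shmt2 was highest at 135 RPKM, then Asns (94.7), Psat1 (84.7), Chac1 (83.4), Trib3 (66.1), Phgdh (58.2), Mthfd2 (44.2) and Psph (29.8), where only Psat1 and Chac1 overlapped. The libraries labelled LM9 Nfib KO gave the same order, with Shmt2 at 133 RPKM, and no overlap between neighbours. Shmt2 thus moved from the fifth place to the first and Trib3 from the first to the fifth. These levels rest on the GENCODE exon union, which need not be the transcript that the cells make.

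**Figure D3:**
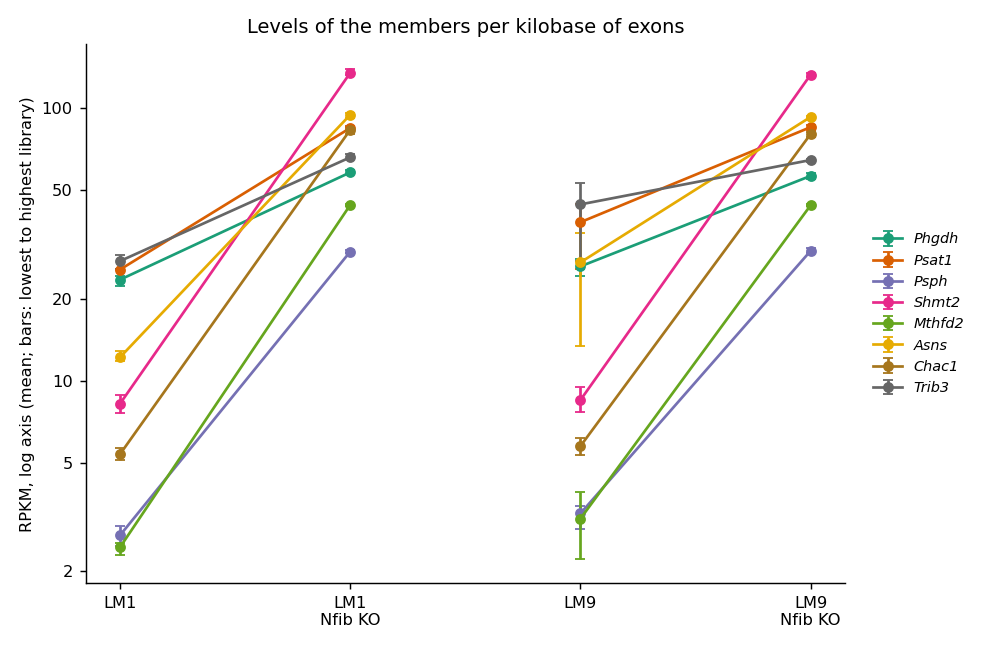
RPKM of each member on a log axis (y) in the 4 groups (x), as mean with bars from the lowest to the highest of 3 libraries; lines join a parental group with the knockout-labelled group of its line. Shmt2 rises from 8.24 to 135 RPKM in LM1 and passes Trib3, Psat1, Phgdh and Asns, the 4 members above it in LM1, and Psph and Mthfd2 are lowest in all 4 groups.

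Paralogues of the members did not all share the change. Shmt1, the cytosolic counterpart of Shmt2, rose from 3.59 ± 0.187 to 19.7 ± 0.871 CPM in LM1 and from 4.19 ± 0.882 to 18.9 ± 0.691 CPM in LM9. Mthfd1, the cytosolic trifunctional enzyme, rose from 14.7 ± 0.431 to 98.2 ± 0.739 CPM in LM1 and from 15.6 ± 0.898 to 96.7 ± 3.63 CPM in LM9. Chac2 rose from 1.86 ± 0.260 to 6.35 ± 1.07 CPM in LM1 and from 1.12 ± 0.463 to 6.60 ± 1.14 CPM in LM9. Mthfd2l, the other mitochondrial enzyme of the Mthfd2 kind, fell from 13.5 ± 0.239 to 7.29 ± 0.288 CPM in LM1 and from 12.2 ± 1.06 to 7.87 ± 1.81 CPM in LM9, where scaling by library totals alone lost the call (log2 fold change -0.29, adjusted p = 0.0888). The ratio of Mthfd2 to Mthfd2l in RPKM was 1.21 in LM1, 1.70 in LM9, 40.2 in libraries labelled LM1 Nfib KO and 37.4 in those labelled LM9 Nfib KO. Trib2 fell from 224, 235 and 234 CPM in LM1 to 1.59, 1.62 and 2.35 CPM, and in LM9 from 231, 125 and 129 CPM to 1.43, 1.51 and 2.05 CPM. Trib1 fell in both lines (log2 fold change -0.76 and -0.40), the latter not under library totals alone (-0.04, adjusted p = 0.845) and at -0.17 (adjusted p = 0.00351) without LM9 replicate 1. The ratio of Trib3 to Trib2 in RPKM went from 0.517 in LM1 to 155 in libraries labelled LM1 Nfib KO.

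Atf4 mRNA was at 223, 215 and 214 CPM in LM1 and at 725, 721 and 732 CPM in libraries labelled LM1 Nfib KO. In LM9 it was at 221, 358 and 352 CPM, against 740, 708 and 716 CPM in libraries labelled LM9 Nfib KO. Like Psat1, Asns and Trib3, it was at the LM1 level in LM9 replicate 1 and higher in replicates 2 and 3. It rose by a log2 fold change of 1.74 (adjusted p = 4.2e-07) in LM1 and 1.25 (adjusted p = 7.37e-06) in LM9. Atf5, a related factor, rose by 1.09 and 0.91 on the log2 scale. Ddit3, which encodes the stress factor CHOP, rose in LM1 (0.69, adjusted p = 0.00503) and was at 130 to 244 CPM in LM9 and 208 to 221 CPM in libraries labelled LM9 Nfib KO (0.13, adjusted p = 0.518). Without LM9 replicate 1 the sign for Ddit3 in LM9 turned and the test passed (-0.17, adjusted p = 0.000306). Atf3, a factor induced by many stresses, was at 31.8 to 32.4 CPM in LM1 and 47.3 to 50.5 CPM in libraries labelled LM1 Nfib KO (0.61, adjusted p = 0.0502, or 2.10e-10 without LM9 replicate 1). LM9 replicates 2 and 3 had more Atf3 (77.4 and 75.7 CPM) than any knockout-labelled library, and the LM9 change went from -0.26 (adjusted p = 0.349) to -0.68 (adjusted p = 5.66e-11) without replicate 1. Among the 14 eIF2 kinases, ATF4 and partner factors, 7 were higher and 3 lower in each line, with median log2 fold changes of 0.60 in LM1 and 0.19 in LM9. Library totals alone gave 8 higher and 1 lower in LM1 and 9 and 2 in LM9, where the median became 0.54. Without LM9 replicate 1, 9 were higher and 5 lower in LM9, with a median of 0.28. With all libraries, 43.1% of all genes in LM1 and 44.3% in LM9 were higher, and 38.1% and 38.0% lower. The 7 of 14 higher were thus near that share, and the 3 lower were below it. The all-gene medians were 0.08 and 0.13, or 0.16 in LM9 without replicate 1. Eif2ak1, the haem-regulated eIF2 kinase, rose by 1.57 and 1.87, while Cebpb, a C/EBP partner, fell by 2.72 and 3.75 on the log2 scale. Cebpg, another partner, fell by 0.37 and 0.49, and lost its call in both lines when library totals alone were used (-0.15 and -0.14).

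Other genes of the pathway were taken from lists chosen with earlier results of these data known. Their counts are descriptions, to be read beside the shares of all genes called higher and lower given above. Of 21 other ATF4 target genes, 17 were higher and 2 lower in LM1, and 16 higher and 1 lower in LM9, with medians of 1.79 and 1.98. Without LM9 replicate 1 these counts were 17 and 4 in LM1 and 18 and 2 in LM9. Stc2, a secreted glycoprotein, had 0 or 1 count in each parental library and 728 to 844 counts in each library labelled knockout, which against a floor of 3 counts per library is at least 205-fold higher for LM1 and at least 172-fold higher for LM9. Gdf15, a stress-induced cytokine, had 0 to 3 counts against 271 to 345, at least 86.4-fold and 66.9-fold higher. Ddit4, an ATF4 target that restrains mTORC1, went the other way, from 281 to 323 CPM in LM1 to 50.9 to 52.0 CPM, and from 319, 1042 and 1033 CPM in LM9 to 47.7 to 49.3 CPM. All 12 cytosolic tRNA synthetases on the list of ATF4 targets rose in both lines, with medians of 1.59 and 1.51, led by Lars (2.83 and 2.87) and Wars (2.97 in LM1). Of the 8 other cytosolic tRNA synthetases, 5 were higher and 2 lower in LM1 and 5 higher and 3 lower in LM9, and under library totals alone 5 were higher and 1 lower in each line. Hars (2.26 and 1.99) and Rars (1.96 and 1.63) led their rises, and Qars fell by 1.50 and 1.77 on the log2 scale. Kars fell by 0.25 and 0.47, and lost its call in both lines under library totals alone (-0.03 and -0.11).

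The lists nearest to the enzymes' own substrates were mixed. Of 16 genes of folate one-carbon metabolism and glycine cleavage, 12 were higher and 3 lower in each line, with medians of 1.91 and 2.26. Tyms, which makes thymidylate, rose by 3.40 and 3.01. Amt, a subunit of the glycine cleavage system, fell from 11.6 ± 0.357 to 0.477 ± 0.165 CPM in LM1 and from 10.8 ± 1.22 to 0.483 ± 0.105 CPM in LM9. Of 12 genes of serine use and transport in the files, 5 were higher and 6 lower in LM1 and 4 and 4 in LM9. Their medians were -0.50 and -0.13. Library totals alone gave 5 and 5 in LM1 with a median of -0.28, and 5 and 3 in LM9 with a median of 0.24. Leaving out LM9 replicate 1 gave 5 higher and 5 lower in LM9, with a median of -0.04. Sptlc1, a subunit of the enzyme that starts sphingolipid synthesis from serine, rose by 2.32 and 2.72, and Serinc1 by 0.83 and 0.91. Serinc2 fell from 141 to 275 CPM over the parental libraries to 1 to 6 counts in the libraries labelled knockout, and Serinc3 by 2.61 and 2.72 on the log2 scale. Of 8 genes of asparagine and glutathione breakdown, 2 were higher and 4 lower in LM1 and 3 and 4 in LM9. Library totals alone gave 4 and 4 in both lines. Ggt7 (3.56 and 3.35) and Oplah (0.87 and 0.99) rose, and Asnsd1 (-0.88 and -1.12) and Asrgl1 (-0.64 and -0.74) fell. Over all lists, 61 of 94 genes were higher and 22 lower in LM1, and 60 and 20 in LM9 (65 and 24 without LM9 replicate 1), beside the 43.1% and 44.3% of all genes that were higher and the 38.1% and 38.0% that were lower.

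**Figure D4:**
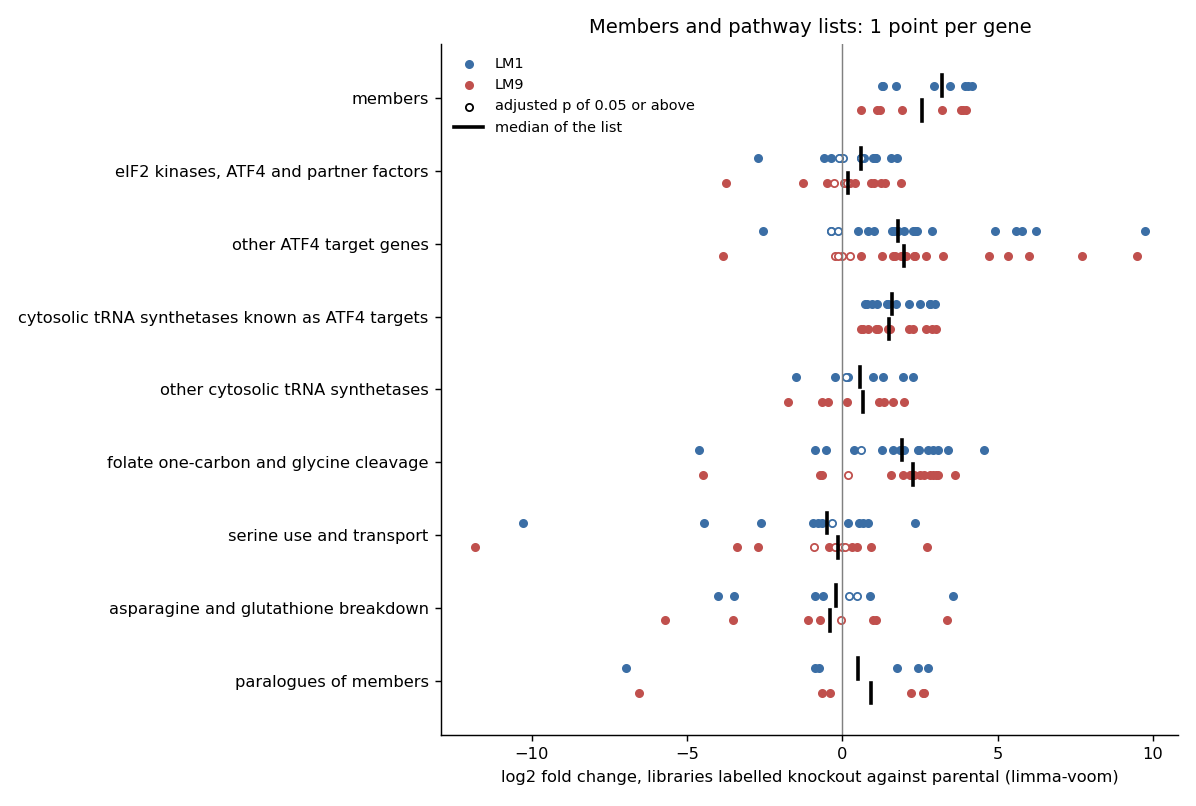
Log2 fold change (x axis) of each gene of the member list and of the pathway lists (y axis), LM1 above and LM9 below in each row; filled points passed an adjusted p of 0.05 and black ticks are list medians. The members and the tRNA synthetases known as ATF4 targets lie wholly to the right of 0, while serine use and asparagine and glutathione breakdown lie on both sides; points of genes with 3 or fewer counts in each library of a group are fitted values, not bounds.

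A test of whether a member changed more in one line than in the other (an interaction term) uses the same libraries as the comparisons above. It passed for 0 members and for 0% of all genes in limma-voom, while 4 members and 4495 genes had an unadjusted p under 0.05, and edgeR called 1 gene and DESeq2 78, none of them a member. The estimate was positive for all 8, from 0.07 for Shmt2 (95% interval -0.18 to 0.31) to 1.04 for Asns (0.20 to 1.88, adjusted p = 0.202). Without LM9 replicate 1 the interaction passed for 6 members, all with the larger change in LM1, beside 27.6% of all genes in that direction and 57.2% in either. The change was larger in LM1 by 1.50 for Asns, 0.98 for Trib3, 0.78 for Psat1, 0.54 for Mthfd2, 0.35 for Psph and 0.27 for Phgdh on the log2 scale, with adjusted p from 3.75e-12 for Asns to 0.00245 for Psph. Shmt2 (0.14, adjusted p = 0.169) and Chac1 (0.20, adjusted p = 0.0929) did not pass. For the members, the knockout-labelled groups of the lines differed by only -0.01 to 0.05 on the log2 scale. The interaction of a member is therefore almost the difference between LM1 and LM9 below with its sign turned, and not a separate result.

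The parental lines were also compared directly. Between LM1 and LM9, 0 members passed, beside 0.00550% of all genes (1 gene), with 5 members and 8661 genes at an unadjusted p under 0.05. DESeq2 called 5 members, beside 33.9% of all genes (6159 genes), and edgeR called 0 members and 1 gene. Asns was lower in LM1 by a log2 fold change of -1.02 (95% interval -1.65 to -0.38, adjusted p = 0.0543) and Trib3 by -0.63 (-1.07 to -0.18, adjusted p = 0.0543). Without LM9 replicate 1, 6 members were lower in LM1, beside 32.4% of all genes that were lower and 65.7% that differed in either direction. Asns then stood at -1.47 (adjusted p = 2.02e-13), Trib3 at -0.95 (adjusted p = 2.25e-11) and Psat1 at -0.79 (adjusted p = 4.64e-12). Mthfd2 (-0.54), Psph (-0.36) and Phgdh (-0.23) followed, while Shmt2 (-0.12, adjusted p = 0.202) and Chac1 (-0.15, adjusted p = 0.167) did not pass. LM9 replicates 2 and 3 had 2.78 times the LM1 mean of Asns, 1.92 times that of Trib3 and 1.73 times that of Psat1. Replicate 1 had 1.10 times the LM1 mean of Asns and 1.00 times that of Trib3.

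**Figure D5:**
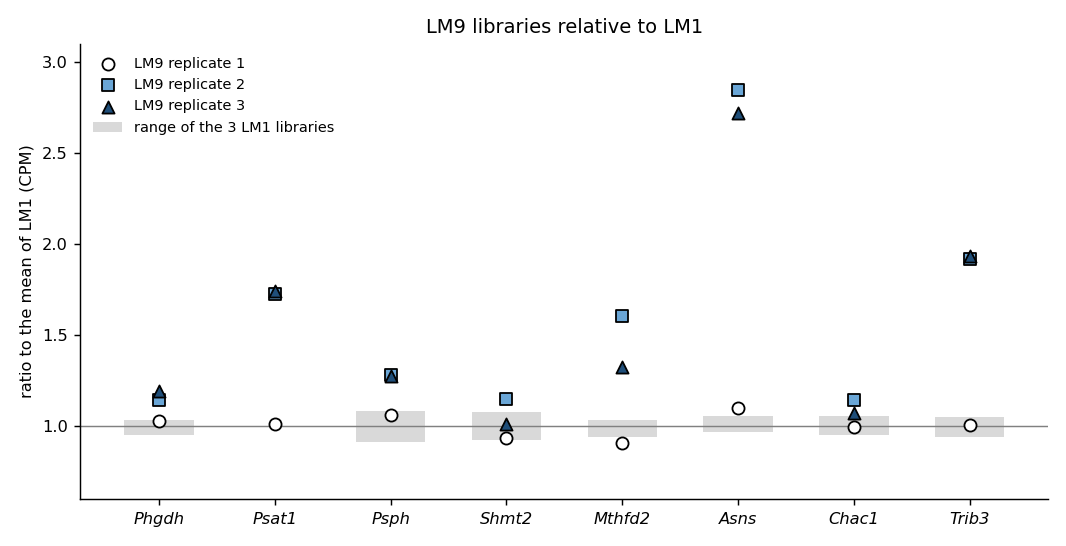
Ratio of each LM9 library to the LM1 mean in CPM (y axis) for the 8 members (x axis); grey bars span the 3 LM1 libraries. LM9 replicate 1 lies between 0.905 and 1.10 for all members, whereas replicates 2 and 3 average 2.78 for Asns, 1.92 for Trib3 and 1.73 for Psat1 and 1.08 for Shmt2.

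Between the knockout-labelled groups of the lines, 0 members passed (0% of all genes; 0 members and 178 genes at an unadjusted p under 0.05; 0 genes in edgeR and in DESeq2). The estimates lay between -0.01 and 0.05 on the log2 scale, and the ranges of the libraries overlapped for each member. The 95% intervals were narrow for Chac1 (-0.07 to 0.17), Phgdh (-0.09 to 0.18) and Psph (-0.15 to 0.13) and wide for Asns (-0.52 to 0.57). LM9 replicate 1 is in neither group but enters the shared estimate of the spread, and without it the SE for Asns went from 0.25 to 0.03 at the same estimate of 0.03.

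For each member, the gene whose centred log2 values over the 12 libraries were most like it was found among 10280 genes with a mean of at least 10 CPM, the members left out, by the root mean square difference. These were Fbxw8 for Phgdh (0.03), Pomp for Psat1 (0.03), Clcf1 for Trib3 (0.04), Polr3b for Psph (0.07), Trmt6 for Chac1 (0.09), Bop1 for Mthfd2 (0.09), Hsph1 for Asns (0.10) and Ccdc86 for Shmt2 (0.11). Among the members, Shmt2 and Chac1 were closest to each other (0.10). Asns was farthest from the rest, with Psat1 nearest at 0.52.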

How the data were processed

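Per the study's methods and labels, poly-A RNA was made into stranded libraries and read from a single end; the authors aligned reads to mm10 with STAR and counted read starts over the exon union of each gene with QuasR; versions, annotation release, and the handling of strand and multiply aligned reads are not given in the sources used here. The deposited values were raw counts, 1 file per library. In each gene the third-highest library held at least 8 counts, so low genes appear to have been removed. Totals ran from 29249075 to 37162594, and 3 counts corresponded to 0.0727 to 0.121 TMM-scaled CPM; such floors cover counting error only. All 12 libraries were used. GENCODE M21 named 18268 of 18278 identifiers; Ddit3 and Gcat had 2 each and the first was used.

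filterByExpr (minimum count 10, minimum total 15) kept 18176 genes. Counts were scaled with TMM factors and fitted with limma-voom (offset 0.5, 1 mean per group, two-sided moderated tests). P-values were adjusted by Benjamini-Hochberg over all genes in each of 5 comparisons, with a threshold of 0.05. The work used limma 3.58.1, edgeR 4.0.16 and DESeq2 1.42.0 in R 4.3.3. The code was tested on simulated data.

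Members and lists were chosen with earlier results of these data known. Named were all members, their paralogues, Atf4, Atf3, Atf5, Ddit3, and from each list the 2 largest rises and falls past the threshold in both lines with a mean of at least 1 CPM; 1 gene that this rule names is not reported here. Col1a1, Fn1, Pdgfrb, Vim, Krt18, Epcam, Krt14, Trp63, Cdh5, Pecam1, Cct6a, Gm15544 and Gm43890 are named beside results they touch. Of 6 marker lists, the haematopoietic sum (Cd68) ran from 450 to 554 CPM in parental and from 95.7 to 104 CPM in knockout-labelled libraries. The adipocyte sum ran from 0.354 to 3.71 and from 0.264 to 0.493 CPM. The basal sum ran from 0.354 to 19.1 and from 6.32 to 7.17 CPM, but its 2 markers in the files did not move together. Krt14 was at 0 to 0.322 CPM in parental and at 6.16 to 6.90 CPM in knockout-labelled libraries. Trp63 was at 15.8 to 19.0 CPM in LM1 and at 17.9, 0.0403 and 0.276 CPM in LM9 replicates 1, 2 and 3. Knockout-labelled libraries had 0.156 to 0.392 CPM of Trp63. Alternatives were other tests, scalings and filters, sample weights, a replicate block, fits of the compared groups, a fold threshold and leaving out each library.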

Additional observations from a re-analysis of the deposited data

How the results depend on the processing

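In both lines each member stayed higher in knockout-labelled than in parental libraries under all alternatives run, and the call held in all but 1 case: Trib3 in LM9 had a log2 fold change of 0.60 that missed the threshold when only the LM9 groups were fitted. With a log2 fold change above 1 required as well, 8 members were called in LM1 and 7 in LM9. The counts of called genes in these comparisons stayed within 1.5 times, from 9981 to 16227 in LM1 and from 10027 to 16243 in LM9. No called value reversed. Scaling by library totals moved the all-gene median of the log2 fold change from 0.08 to 0.31 in LM1 and from 0.13 to 0.49 in LM9. The shift comes from the scaling factors, and no member lost its call under it.

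The count for the difference between lines moved most when LM9 replicate 1 was left out or weighted less, and that for LM1 against LM9 moved also with the test, scaling and filter. For the difference between lines, leaving out each library in turn gave 0 to 10444 genes and 0 to 6 members, the highest without LM9 replicate 1. Sample quality weights, which give a deviating library less weight, gave 10557 genes and 6 members, and edgeR without that library, chosen after seeing the data, gave 10410 genes and 6 members. With all libraries, edgeR gave 1 gene, DESeq2 78 and library totals 1. For LM1 against LM9, leaving out each library in turn gave 0 to 11995 genes and 0 to 6 members. Sample quality weights gave 11596 genes and 6 members, edgeR without LM9 replicate 1 gave 12019 genes and 6 members, DESeq2 6159 genes and 5 members, library totals 5226 genes and 3 members, and a mean of at least 5 CPM 4670 genes and 4 members. The fit of only the compared groups gave 0 genes there and 6 between the knockout-labelled groups; why these counts moved was not tested.

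Same-numbered libraries did not deviate together (correlations from -0.241 to 0.22 across genes), so the numbers do not pair the libraries. With the replicate block, 14599 genes and 8 members were called in LM1, 14839 genes and 8 members in LM9, and 0 genes in each of the other comparisons.

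Without molecular identifiers and with 3 libraries per group, precision is limited by the spread between libraries and by the uncertain assignment of reads for Phgdh and Psph.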
